A study of Rattus norvegicus with 6 samples.

Results

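Protein kinases add phosphate groups to other proteins and protein phosphatases remove them, and the loci of both classes were examined in the brains of 2 inbred rat strains. The members were the loci of the deposited annotation whose reference gene name begins with the stem of a kinase, a phosphatase or a subunit of one (Map2k to Map4k, Mapk, Mknk, Camk, Prk, Cdk, Csnk, Akt, Gsk3, Stk, Dyrk, Pik3, Pi4k, Ppp1 to Ppp6, Ppm1, Ptpn, Ptpr and Dusp). The rule found 137 of 24746 loci, which carry 687 of 64526 transcripts. It also takes in genes that only share such a stem, among them Camkmt, a methyltransferase of calmodulin, and Prkcsh, a glucosidase subunit of the endoplasmic reticulum. At 20 of the 137 loci the annotation joins the member with another named gene, and these are given as joined loci.

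Whole brain polyA RNA of 3 male rats of each strain, 1 library per rat, was read from both ends over 100 bases, and no treatment was named. BNLx (BN-Lx/CubPrin) is a Brown Norway line that carries the polydactyly-luxate segment, and SHR (SHR/OlaIpcvPrin) is the spontaneously hypertensive rat. Ages were not given in the sources used here. Values are RSEM expected counts scaled to a library of 1000000 counts (CPM) for comparisons between strains, and RSEM transcript abundances (TPM), which are corrected for transcript length and have the same total in each library, for levels of different genes. SE is the standard error of a log2 fold change (SHR over BNLx).

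Opposed kinases and phosphatases set the activity of ion channels, receptors and transcription factors in neurons. Calcium entry at synapses acts through calcium/calmodulin-dependent kinases and the phosphatase calcineurin, growth factor and stress signals pass along the MAP kinase cascades, and cAMP acts through protein kinase A. Many of these genes make several isoforms, since alternative exons change the targeting of the enzyme and alternative 3′ ends change the untranslated region of the mRNA.

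Total expected counts per library ran from 11747048 in BNLx replicate 2 to 41333079 in SHR replicate 1. BNLx replicate 3 and SHR replicate 1 differed most from their own strain: 40 and 28 of the 131 member loci tested lay over 0.5 log2 units from the mean of the other 2 libraries (30.5% and 21.4%, against 32.9% and 30.8% of all loci), while the other 4 libraries had 8 to 17 such members. The label "whole brain" was checked against regional markers. For 5 of 6 listed forebrain markers with a locus, the summed level was 3181 and 3472 TPM in BNLx replicates 1 and 2 and 2534 and 2535 TPM in SHR replicates 2 and 3, but 207.6 TPM in BNLx replicate 3 and 834.5 TPM in SHR replicate 1. By this sum the library labelled BNLx replicate 3 goes against its label. Cerebellar markers (2 of 7 with a locus) summed to 88.1 TPM in BNLx replicate 3 and 74.0 TPM in SHR replicate 1, against 18.9 to 30.5 TPM elsewhere. This sum follows Zic1 (83.2 and 70.4 TPM in these 2 libraries), while the other marker, Neurod1, was lower there (4.87 and 3.57 TPM) than elsewhere (9.90 to 18.4 TPM). Striatal markers (2 of 6) summed to 14.3 TPM in BNLx replicate 3, 226.2 TPM in SHR replicate 1 and 61.8 to 100.9 TPM elsewhere. Oligodendrocyte markers (2 of 6) summed to 2321 to 5211 TPM in BNLx and 1471 to 3060 TPM in SHR, neuron markers (4 of 9) to 3187 to 4937 TPM and 2544 to 3716 TPM (1 of the 4, Snap25, had a lower mean count in SHR and 3 a higher one), and the choroid plexus marker Aqp1 to 2.88 to 25.4 TPM and 5.0 to 29.8 TPM. Astrocyte markers (2 of 6) summed to 692 to 738 TPM in BNLx and 743 to 1417 TPM in SHR. Microglia markers (3 of 6) summed to 113 to 116 TPM and 118 to 177 TPM. Both sums lay higher in SHR without overlap, but by little in the nearest libraries. Of the single markers, Slc1a2, Gja1, Aif1 and C1qa overlapped between the strains and Cx3cr1 did not. Gja1 had its highest value, 246.9 TPM, in BNLx replicate 3. No marker of these lists with a locus was at 0, and no blood or pituitary marker had a locus. In bulk tissue, fewer cells of a type and less RNA per cell cannot be told apart.

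The most abundant member by far was Camk2n1, an inhibitor of calcium/calmodulin-dependent kinase II. It stood at 4357, 4679 and 905 TPM in BNLx replicates 1 to 3 and at 1709, 5110 and 4640 TPM in SHR replicates 1 to 3. The 2 low values are those of the 2 libraries with low forebrain markers, and no other member lay as far below the other 2 BNLx libraries in BNLx replicate 3. Ppp3ca, the catalytic subunit of calcineurin, followed with 408, 460 and 164 TPM in BNLx and 358, 445 and 485 TPM in SHR, and was low in BNLx replicate 3 alone. Ptprn, a receptor-type phosphatase of dense-core vesicles, averaged 317 TPM, and Prkacb, a catalytic subunit of protein kinase A, 292.8 TPM. They were followed by the joined locus of Mapk8ip1, a scaffold of the JNK cascade, at 284 TPM, the joined locus of Camkv, a kinase-like calmodulin-binding protein of synapses, at 279.5 TPM, and Map2k1, the MEK1 kinase, at 267 TPM. In all, 26 members averaged over 100 TPM and the median of the 131 tested members was 39.3 TPM. At the other end Dusp14l1 was listed at 0 in every library, and Cdk1, Dusp9, Ppp1r17, Ppp1r1c and Stk26 were at 3.2 TPM or less in each library and did not pass the filter of 50 counts in 2 of 3 replicates of a strain. Among the leading members of the other families, Ppp1cb, a catalytic subunit of protein phosphatase 1, averaged 212 TPM, the kinase Stk25 averaged 210.1 TPM, Prkcz, the zeta form of protein kinase C, 157 TPM and the joined locus of Stk40 147 TPM. The joined loci of Csnk1e, Cdk9, Ptpn9 and Dusp28 averaged 129.7, 97.3, 45.96 and 33.3 TPM. Prkar2b, a regulatory subunit of protein kinase A, averaged 68.95 TPM with its highest value of 104 TPM in SHR replicate 1. The AMP-activated kinase subunits Prkag2 and Prkaa1 averaged 58.6 and 14.6 TPM, Dusp7 53.6 TPM and Dyrk2 12.9 TPM. The joined locus of Camkv had a log2 fold change between strains of 0.60. None of the other tested loci named here went beyond 0.395 in size.

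**Figure D1:**
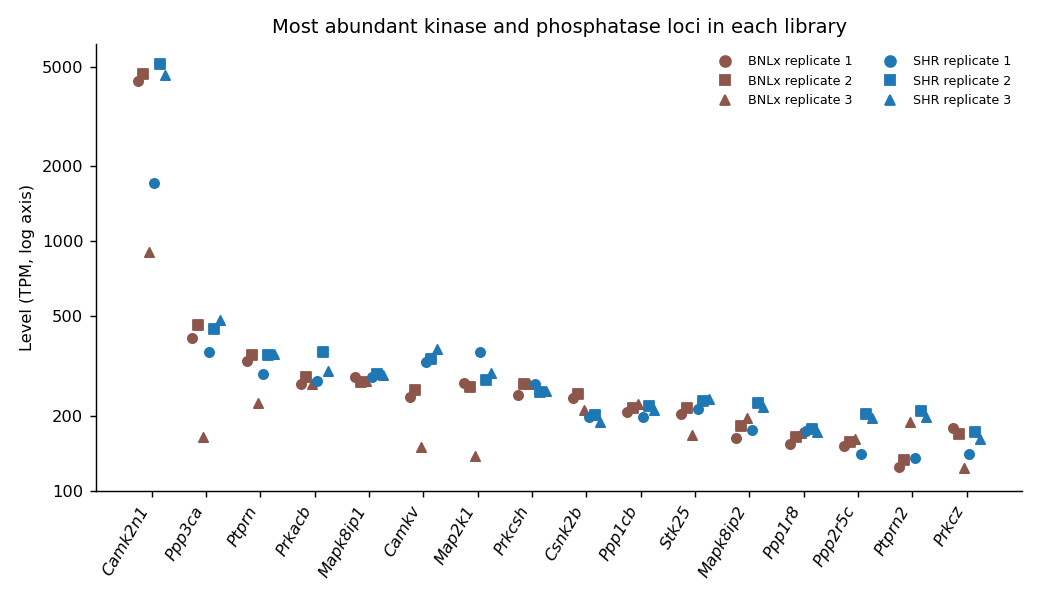
Levels of the 16 most abundant kinase and phosphatase loci in TPM on a log axis, with 1 point per library (brown, BNLx; blue, SHR; the shape gives the replicate). Camk2n1 lies above the rest in every library, and its 2 low points are BNLx replicate 3 at 905 TPM and SHR replicate 1 at 1709 TPM.

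Several other members separated libraries within a strain more than they separated the strains. Prkch, the eta form of protein kinase C, was at 18.6 TPM in BNLx replicate 3 and 14.2 TPM in SHR replicate 1 and between 2.15 and 4.18 TPM in the other 4 libraries. Dusp6, a phosphatase of ERK, showed the reverse, with 16.05 and 13.5 TPM in these libraries and 28.9 to 36.5 TPM in the others. Map2k1 was at 138 TPM in BNLx replicate 3 against 261 to 361 TPM elsewhere, and Ptpn3, a cytoskeleton-linked tyrosine phosphatase, was at 101 TPM there against 11.0 to 33.5 TPM elsewhere. Prkch and Dusp6 thus went the same way in both libraries with low forebrain markers, while Map2k1 and Ptpn3 did not. Map2k1 had its highest value, 361 TPM, in SHR replicate 1. Ptpn3 lay 1.42 log2 units below the mean of the other SHR libraries there. The part of tissue composition in these members was not tested.

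No member locus was called different between strains at the level of its total. By the edgeR quasi-likelihood F-test, 0 of 131 members had a Benjamini-Hochberg adjusted p of 0.05 or less, against 1.02% of the 14471 loci tested. At an unadjusted p of 0.05, 8 members passed (6.11%, against 10.2% of all loci), 4 higher and 4 lower in SHR. DESeq2 called 3 members (2.29%, against 3.76% of all loci), and limma on log2(TPM + 1) or log2(TPM + 0.1) called 0. The values of the strains did not overlap for 22 members (16.8%, against 17.5% of all loci), 13 of them higher (9.92%, against 8.97%) and 9 lower in SHR (6.87%, against 8.49%). Of the 131 members, 73 had a higher and 58 a lower mean in SHR, with a median log2 fold change of 0.04 (0.00038 over all loci), and 125 differed by less than 1.5-fold (95.4%, against 87.0% of all loci). The median standard error of a member's log2 fold change was 0.165.

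Ptpro, a receptor-type tyrosine phosphatase of neurons and kidney podocytes, was the one member with a difference over 2-fold and had the lowest p. It stood at 25.8, 23.1 and 42.3 CPM in BNLx and at 77.4, 57.2 and 79.2 CPM in SHR. All SHR values lie above all BNLx values, and the highest BNLx value is that of BNLx replicate 3. The log2 fold change was 1.23 (SE 0.26 and edgeR adjusted p = 0.141), and the adjusted p was 0.0017 with DESeq2. Without BNLx replicate 3 it was 1.54 and Ptpro passed with edgeR, the one member to do so when a single library was left out.

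Prkce, the epsilon form of protein kinase C, showed the next largest difference among the 6 members with the lowest p in that direction. Its 190, 204 and 122 CPM in BNLx all lie below its 219, 328 and 387 CPM in SHR. The difference was 0.86 on the log2 scale (SE 0.28 and edgeR adjusted p = 0.355), and SHR replicate 1 lies nearest to BNLx. Of the remaining 4, Ppp1r13b, an apoptosis-linked binding partner of protein phosphatase 1, had a log2 fold change of 0.33, Camk2d, the delta chain of calcium/calmodulin-dependent kinase II, of 0.31, and the joined loci of Camkmt and of Camkv with Traip of 0.40 and 0.60. Their adjusted p-values from edgeR ran from 0.428 to 0.509.

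In the other direction, Ppm1m, a metal-dependent serine/threonine phosphatase, was at 12.4, 11.5 and 10.9 CPM in BNLx and 6.8, 8.0 and 7.7 CPM in SHR. The strains did not overlap, and the spread within each was small. The log2 fold change was -0.63 (SE 0.15 and edgeR adjusted p = 0.209, 0.0235 with DESeq2). Stk39, the SPAK kinase that acts on cation-chloride cotransporters, had 90.2, 81.7 and 103 CPM in BNLx and 71.5, 62.9 and 63.2 CPM in SHR, again without overlap. Its log2 fold change was -0.48 (SE 0.13 and edgeR adjusted p = 0.249, 0.0361 with DESeq2). Dusp15, a dual-specificity phosphatase of oligodendrocytes (-0.51), Dusp19 (-0.52), the atypical kinase Mapk6 (-0.46) and the joined locus of Csnk2b with Ly6g5b (-0.33), which holds the regulatory subunit of casein kinase 2, completed the 6. For Stk39, Dusp15, Dusp19 and Mapk6 the highest library was BNLx replicate 3, which also had the highest summed oligodendrocyte markers. The oligodendrocyte marker Mobp itself had 1062 CPM in BNLx and 405.5 CPM in SHR without overlap, a log2 fold change of -1.39 (SE 0.35 and edgeR adjusted p = 0.225), and the part of these cells in the members' differences was not tested.

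By family, the largest median was that of the 3 calcium/calmodulin kinase loci (Camk1, Camk2d and the joined locus of Camkv), with a log2 fold change of 0.31 and higher values in SHR without overlap at each. The 10 receptor tyrosine phosphatases had a median of 0.17, 8 of them higher. The 9 cyclin-dependent kinases and activators had a median of 0.14, the 18 loci of the MAP kinase cascade of 0.04, the 17 serine/threonine phosphatase subunits of -0.0011, the 12 STK kinases of -0.06 and the 8 dual-specificity phosphatases of -0.08. None of these loci was called, so the medians describe these libraries only. Cdk5, the neuronal cyclin-dependent kinase, had 128, 120 and 126 TPM in BNLx and 117, 111 and 114 TPM in SHR, a log2 fold change of -0.19 (SE 0.11). Akt1 lay between 111 and 129 TPM in all 6 libraries, with a log2 fold change of -0.05 (SE 0.11). Of 12 widely studied brain kinases and phosphatases on the naming list, only Cdk5 and Ppp3ca had a member locus. The others, such as Camk2a and Gsk3b, were not analysed here.

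**Figure D2:**
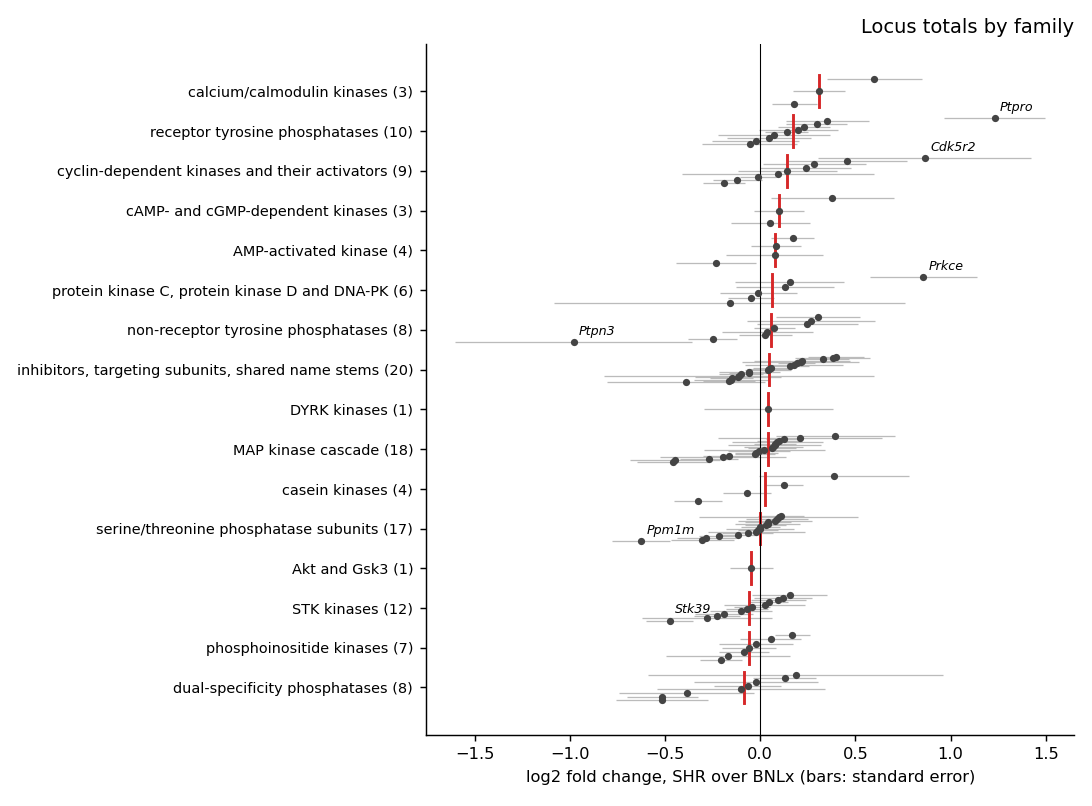
Log2 fold change of each tested member locus (SHR over BNLx; bars, standard error), grouped by family with the number of loci in brackets; red lines mark family medians. Most points lie within 0.5 of 0, Ptpro stands furthest to the right at 1.23, and Ptpn3 furthest to the left at -0.98 with a standard error of 0.62.

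Genes that act beside the members gave no calls either. Of 60 listed upstream and scaffold genes 21 could be tested, with 0 called and a median log2 fold change of 0.0025. Of 69 listed other protein kinases 26 could be tested, with 0 called and a median of 0.05. The lowest p in both lists was that of Erbb4, a neuregulin receptor, with a log2 fold change of 0.46 (SE 0.14 and edgeR adjusted p = 0.309).

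When neither BNLx replicate 3 nor SHR replicate 1 was used, an alternative added once the data had been seen, 31 of 131 members were called by edgeR (23.7%, against 31.5% of all loci), 17 higher (13.0%) and 14 lower in SHR (10.7%). The members' share remained below that of all loci. Ptprz1, a receptor phosphatase of glia, led with a log2 fold change of 0.65 (adjusted p = 0.0023), followed by Prkce (0.86), Ptpro (1.47), Ptprn2 joined with Mir153 (0.51) and Csnk2b joined with Ly6g5b (-0.47). Over all 6 libraries Ptprz1 had a log2 fold change of 0.35 (adjusted p = 0.662). Its BNLx values were 173, 162 and 275 CPM and its SHR values 252, 265 and 262 CPM, so that BNLx replicate 3 alone reached the level of SHR. The part of the astrocyte and microglia markers, whose sums were higher in SHR, and of the oligodendrocyte markers was not tested. Ptprm, a receptor phosphatase of cell contacts, had a log2 fold change of -0.06 over all 6 libraries and of 0.32 without these 2 (edgeR adjusted p = 0.0366), a change of sign.

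The estimated counts of several member isoforms differed between the strains, judged first by an unadjusted p and so not at the threshold of the totals. Of the 687 member transcripts 402 passed the filter, 265 original StringTie transcripts and 137 added by aptardi, a program that places further 3′ ends on a transcript. Aptardi transcripts make up 34.1% of member transcripts and 17.9% of all transcripts. Of the 137, 58 end before and 79 beyond their original transcript, with a median shift of 1022 bases. At an unadjusted p of 0.001 with edgeR, 11 of 402 member isoforms passed (2.74%, against 1.00% of all 32348 isoforms), 5 higher (1.24%, against 0.476%) and 6 lower in SHR (1.49%, against 0.526%). They belong to 8 loci, 6 are aptardi transcripts, and 4 also had an adjusted p of 0.05 or less (0.995%, against 0.532%). Within loci of 2 or more isoforms past the filter the shares were 3.00% for members and 1.18% for all loci with a gene name. DESeq2 gave 25 of 397 isoforms (6.30%, against 3.63%), and edgeR gave 27 of 372 without BNLx replicate 3 and SHR replicate 1 (7.26%, against 3.88%). Without SHR replicate 2 or without SHR replicate 3 the 11 became 6.

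Isoform usage, the share of a locus taken by each isoform, was called in 9 of 94 member loci with 2 or more isoforms (9.57%, against 2.63% of 7742 loci and 3.36% of loci with a gene name; diffSpliceDGE of edgeR, Simes p adjusted over all loci). In order of p these were Ptprj, Stk3, Mknk2, Ptpn3, the joined locus of Camkv, Pi4kb, Ppm1k, Prkacb and Ppm1l. None of these 9 was called by its total, for which the log2 fold changes lay between -0.98 and 0.60. Ptprj, Stk3 and Mknk2 were called under every alternative run, and the other 6 lost the call under at least 1. With limma on voom weights these 3 were kept and the other 6 lost. Without BNLx replicate 3 and SHR replicate 1, 27 of 93 member loci were called (29.0%, against 14.7%).

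Mknk2, the MNK2 kinase that phosphorylates the cap-binding factor eIF4E, exchanged one isoform for another. STRG.26542.1 had 2.95, 2.79 and 2.68 CPM in BNLx and 34.4, 32.3 and 31.8 CPM in SHR, a log2 fold change of 3.55 (SE 0.17 and edgeR adjusted p = 0.0088). STRG.26542.2 had 28.9, 25.4 and 27.6 CPM in BNLx and 2.14, 1.38 and 4.18 CPM in SHR, a log2 fold change of -3.41 (SE 0.45 and edgeR adjusted p = 0.055). The 2 groups are far apart for each isoform, and the libraries that stood apart did not differ from the rest here. Their sum was 30.1 ± 1.81 CPM in BNLx and 35.4 ± 1.504 CPM in SHR (SD, n = 3 each). Of the locus, STRG.26542.1 took 7.4% in BNLx and 79.8% in SHR. On chromosome 7 of rn6, plus strand, the SHR-rich isoform has 42 more bases in exon 1 (11908192 to 11908233), and 35 bases of the last exon of the other (11918732 to 11918766) are a gap in it. Both isoforms start and end at the same base.

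Stk3, the MST2 kinase of the Hippo pathway, had a similar exchange at a low level. STRG.28046.1 was at 0 in every BNLx library and at 3.88, 4.72 and 4.64 CPM in SHR, at least 22.3-fold higher when 3 counts per library stand for 0 (edgeR adjusted p = 0.054). STRG.28046.2 was at 8.24, 7.75 and 8.29 CPM in BNLx and 3.29, 2.19 and 3.81 CPM in SHR. They differ by a single exon of 21 bases, the third of 12, on chromosome 7 (73847056 to 73847076, minus strand), present only in STRG.28046.1. The sum of both was 8.09 ± 0.30 CPM in BNLx and 7.51 ± 0.83 CPM in SHR (SD, n = 3 each), a difference smaller than the spread within SHR.

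Ptprj, the receptor phosphatase DEP-1, has 5 isoforms past the filter, and those that separated the strains differ by few bases. STRG.13367.4 was at 27.0, 19.2 and 29.0 CPM in BNLx, whereas all SHR libraries were at 0, at least 213-fold lower (edgeR adjusted p = 0.019). STRG.13367.3, which carries 3 more bases in exon 3 (chromosome 3, 79282493 to 79282495, minus strand), was at 3.58, 18.1 and 2.60 CPM in BNLx and 17.6, 43.9 and 43.2 CPM in SHR, an overlap through BNLx replicate 2. Another isoform without these bases, STRG.13367.1, which also lacks 72 bases of exon 5, was at 11.1, 1.92 and 7.42 CPM in BNLx and at 0 in SHR. Of the 3 isoforms of 24 exons, both without the 3 bases were thus at 0 in SHR. The other 2 isoforms did not pass: STRG.13367.5, which starts within exon 3 and holds 1 of the 3 bases, had 21.7 to 26.6 CPM in BNLx and 16.95 to 45.0 CPM in SHR, and STRG.13367.6, a single exon beyond the others, 45.5 to 74.2 CPM and 43.2 to 54.5 CPM. The sum of the 3 isoforms of 24 exons was 39.9 ± 1.46 CPM in BNLx and 34.9 ± 15.0 CPM in SHR (SD, n = 3 each), of 124.4 and 122.5 CPM for the whole locus. The lowest SHR value was the 17.6 CPM of SHR replicate 1.

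**Figure D3:**
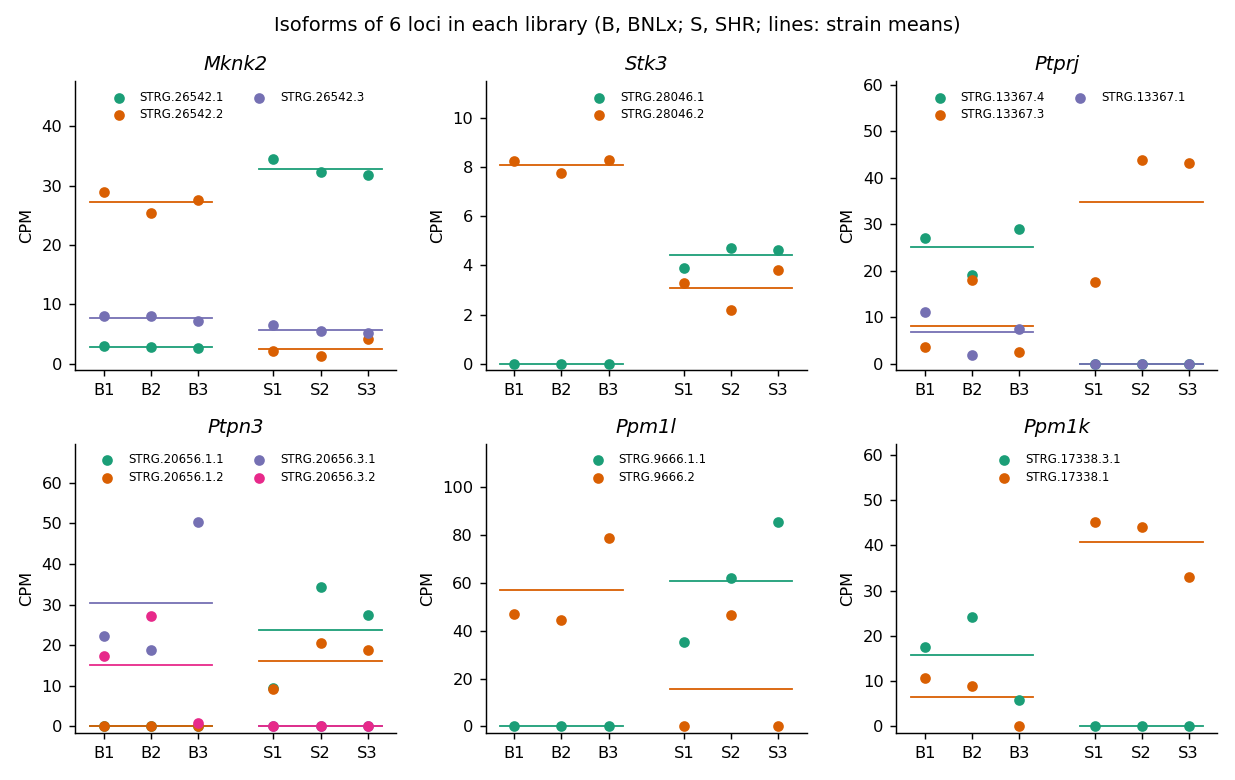
CPM of isoforms of Mknk2, Stk3, Ptprj, Ptpn3, Ppm1l and Ppm1k in each of the 6 libraries (B1 to B3, BNLx; S1 to S3, SHR), with 1 colour per isoform and lines at the strain means. In each panel an isoform that is high in one strain is at or near 0 in the other, for example Mknk2 STRG.26542.2 at 27.3 CPM in BNLx and 2.57 CPM in SHR.

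At Ptpn3 4 isoforms were exchanged as pairs. STRG.20656.1.1 (9.57, 34.4 and 27.4 CPM in SHR) and STRG.20656.1.2 (9.24, 20.4 and 18.8 CPM in SHR) were at 0 in every BNLx library, and rose at least 120-fold and 81.7-fold (edgeR adjusted p = 0.076 and 0.043). STRG.20656.3.1 (22.2, 18.8 and 50.2 CPM in BNLx) and STRG.20656.3.2 (17.4, 27.1 and 0.87 CPM in BNLx) were at 0 in every SHR library, and the first passed at the unadjusted threshold (edgeR adjusted p = 0.051), while the second did not. All 4 come from aptardi. The BNLx pair holds 50 bases in the last exon (chromosome 5, 74251639 to 74251688, minus strand) that are a gap in the SHR pair, and ends 11 bases later. Within each pair the second isoform ends 2300 bases beyond the first, so the long and the short 3′ end were both present in each strain. The sum of the 4 was 45.5 ± 5.73 CPM in BNLx and 39.95 ± 18.8 CPM in SHR (SD, n = 3 each). A shorter isoform with the same 50-base gap, STRG.20656.6.1, goes the other way, with 3.04, 0 and 51.0 CPM in BNLx and 1.595, 0.24 and 1.103 CPM in SHR, and its BNLx mean rests on BNLx replicate 3.

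Among the metal-dependent phosphatases of the Ppm1 family, 3 loci had such isoforms. At Ppm1l, a phosphatase that acts on stress kinases, STRG.9666.1.1 was at 0 in BNLx and at 35.3, 61.9 and 85.1 CPM in SHR, at least 307-fold higher (edgeR adjusted p = 0.036). STRG.9666.2 was at 47.0, 44.6 and 78.7 CPM in BNLx and at 0.38, 46.5 and 0 CPM in SHR, so that SHR replicate 2 held both isoforms. The SHR isoform has a gap of 22 bases in the last exon of the other (chromosome 2, 166215124 to 166215145, plus strand) and ends 129 bases earlier. At Ppm1k, a mitochondrial phosphatase of branched-chain amino acid breakdown, STRG.17338.3.1 was at 17.5, 24.1 and 5.84 CPM in BNLx and at 0 in SHR, at least 135-fold lower (edgeR adjusted p = 0.083). STRG.17338.1 had 10.6, 9.05 and 0 CPM in BNLx and 45.1, 44.1 and 33.0 CPM in SHR (edgeR unadjusted p = 0.096). This isoform has an extra exon of 118 bases and a gap of 113 bases in the last exon of the first (chromosome 4, 88717731 to 88717843, plus strand). Summed with STRG.17338.3, these isoforms gave 24.6 ± 13.1 CPM in BNLx and 48.2 ± 6.02 CPM in SHR (SD, n = 3 each) without overlap, so the sum was not alike in the strains. A minor isoform, STRG.17338.2, was at 0 in BNLx and at 0.67, 2.95 and 2.99 CPM in SHR. At Ppm1m, STRG.32531.1 was at 8.68, 8.27 and 7.89 CPM in BNLx and 1.98, 2.67 and 1.70 CPM in SHR, a log2 fold change of -1.97 (SE 0.28 and edgeR adjusted p = 0.072). STRG.32531.2.1, which holds 338 further internal bases and starts 859 bases earlier, had 0.76, 0.61 and 0 CPM in BNLx and 3.00, 3.76 and 4.23 CPM in SHR. Ppm1m was the one locus of the 3 whose total also differed without overlap.

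Pi4kb, a phosphatidylinositol 4-kinase of the Golgi, had an isoform with expected counts of 122.5, 102.4 and 100.6 in BNLx and of 0.01, 0 and 0 in SHR. This isoform, STRG.10341.3.1, stood at 3.90, 8.88 and 7.97 CPM in BNLx (edgeR adjusted p = 0.057) and took 10.5% of the locus there. It shares its exons with STRG.10341.3 but ends 380 bases further on. STRG.10341.3 had 13.9, 9.58 and 27.7 CPM in BNLx and 13.3, 15.4 and 26.9 CPM in SHR, so the exon chain itself did not separate the strains. At Prkacb the call for usage rested on STRG.11630.1.1, which had 28.7 and 6.85 CPM in SHR replicates 2 and 3 and was at 0 in the other 4 libraries. The main isoform of the locus, STRG.11630.1.2, which ends 1200 bases further on, had 366 to 486 CPM in BNLx and 388 to 440 CPM in SHR. Ptprr, a tyrosine phosphatase of neurons that acts on ERK, did not pass: its STRG.27616.1 had 15.4, 14.4 and 13.7 CPM in BNLx and 20.2, 20.9 and 21.2 CPM in SHR without overlap, a log2 fold change of 0.52 (SE 0.15 and edgeR adjusted p = 0.366). At the joined locus of Camkv the call rested on STRG.32608.7, with 3 exons inside the Traip part of the locus, at 0 in BNLx and 3.95, 2.72 and 1.88 CPM in SHR, and it was lost without SHR replicate 1 or SHR replicate 2 (edgeR adjusted p = 1.0 in each). This isoform took 0.812%, 0.608% and 0.38% of the locus in the SHR libraries, and nearly all counts of the locus fell on its other isoforms.

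In all, 19 of 402 member isoforms were at 0 in every library of 1 strain (4.73%, against 1.24% of all isoforms). Over loci with 2 or more isoforms past the filter the shares were 5.18% for members and 1.83% for all loci with a gene name. Of the 19, 11 were at 0 in BNLx (2.74%, against 0.912%) and 8 at 0 in SHR (1.99%, against 0.328%). They lie at 12 loci and 11 are aptardi transcripts. Of the member isoforms that passed the p threshold with edgeR, 7 are among these 19. The excess of isoforms at 0 and the excess of isoforms that passed are therefore not separate observations. An isoform at 0 in 1 strain could meet the count filter only through the other strain. A large contrast was thus built in, for members and for all isoforms alike. In the other strain 11 of the 19 exceeded 3 counts in every library (2.74%, against 0.572%), and each of the other 8 was at 3 counts or less in 1 library of the other strain. RSEM divides the reads of a locus among its isoforms, so a 0 can be an allocation among near-identical isoforms as well as a lack of reads. The lower bounds for the 19 ran from 11.1-fold to 307-fold, and cover counting error only.

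These 8 isoforms rest on few libraries. Both Prkce isoforms at 0 in BNLx, STRG.23394.1 and STRG.23394.1.1, were also at 0 in SHR replicate 1. In SHR replicates 2 and 3 the first had 16.4 and 15.6 CPM and the second 64.1 and 76.1 CPM. The third isoform of this 3′ end series, STRG.23394.1.2, ends 300 bases beyond STRG.23394.1.1 and carried the whole locus in the 4 other libraries, with 125 to 225 CPM. So SHR replicate 1 showed the Prkce isoforms of BNLx. Prkacb STRG.11630.1.1, Prkar2a STRG.32645.2 and Stk38l STRG.19164.1.1 had 0 or 0.13 counts in SHR replicate 1, while Cdk17 STRG.27282.5 and Ppm1k STRG.17338.2.1, at 0 in SHR, had 0.26 and 0 counts in 1 BNLx library each. Pik3r1 STRG.7508.2.1, an aptardi transcript of the p85 regulatory subunit of phosphoinositide 3-kinase that ends 1010 bases beyond its original, had 8.81, 14.2 and 0 CPM in BNLx and 0 in SHR. Summed with its original transcript it gave 9.44 ± 6.80 CPM in BNLx and 7.36 ± 4.28 CPM in SHR (SD, n = 3 each), a difference within the spread.

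**Figure D4:**
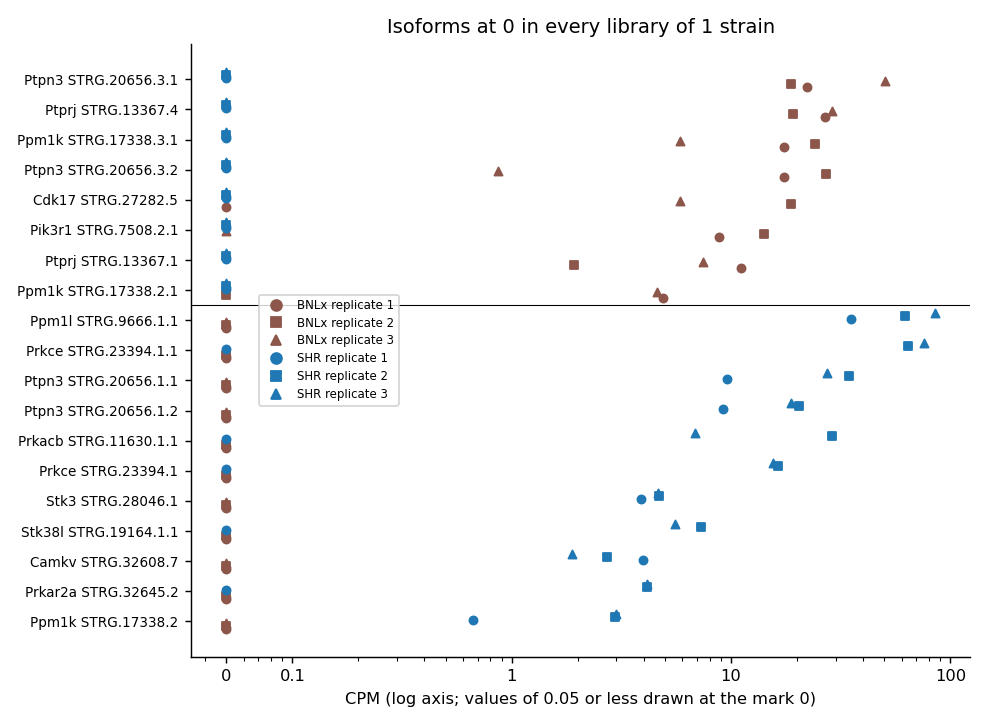
CPM on a log axis of the 19 member isoforms at 0 in every library of 1 strain, with 1 point per library (brown, BNLx; blue, SHR; the shape gives the replicate) and the 8 isoforms at 0 in SHR above the line. In 11 rows all 3 points of the other strain lie away from 0, and in 8 rows 1 library of the other strain also lies at the 0 mark.

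A feature that the choice of members did not use runs through several of these isoforms, namely a very short gap between 2 exons. Over all isoforms past the filter the median gap was 1402 bases, and 319 of 149687 distinct gaps (0.213%) had 60 bases or less. Of the 402 member isoforms 8 hold such a gap, at 5 loci, and 4 of the 8 passed at p of 0.001 as higher in SHR: Mknk2 STRG.26542.1 (35 bases), Ppm1l STRG.9666.1.1 (22 bases), and Ptpn3 STRG.20656.1.1 and STRG.20656.1.2 (the same 50 bases). None of the 8 passed as lower. Of the 394 member isoforms without such a gap, 1 passed as higher (Stk3) and 6 as lower. In each of these 3 loci the gap is the last one of the transcript, inside what is a single last exon in the isoform that prevailed in BNLx. The other 4 isoforms did not pass. They are Camk2d STRG.11238.3 (32 bases, 119 CPM in BNLx and 136 CPM in SHR), STRG.29877.13 of the joined locus of Map3k12 with Npff (39 bases, 5.81 and 5.20 CPM), and 2 further isoforms of Ptpn3.

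Over all loci, with the 8 member isoforms included, the imbalance ran the same way. The isoforms with a gap of 60 bases or less lie at 274 loci, and isoforms of a locus that share a gap count separately. Of 372 isoforms with a gap of 60 bases or less, 30 passed as higher in SHR (8.06%) and 3 as lower (0.81%), against 124 (0.39%) and 167 (0.52%) of 31976 isoforms without one. At 0 in every BNLx library were 26 of the 372 (6.99%) and 269 of the others (0.84%), and at 0 in every SHR library 2 (0.54%) and 104 (0.33%). With the limit at 40 bases, 9.82% of 224 isoforms passed as higher and 0.89% as lower, and at 100 bases 0.7% and 0.33% of 8763. The 60-base limit was chosen after the values were seen. The annotation records these gaps as introns, the genome sequence was not used here, and whether they are spliced introns or bases absent from one strain's genome was not tested.

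**Figure D5:**
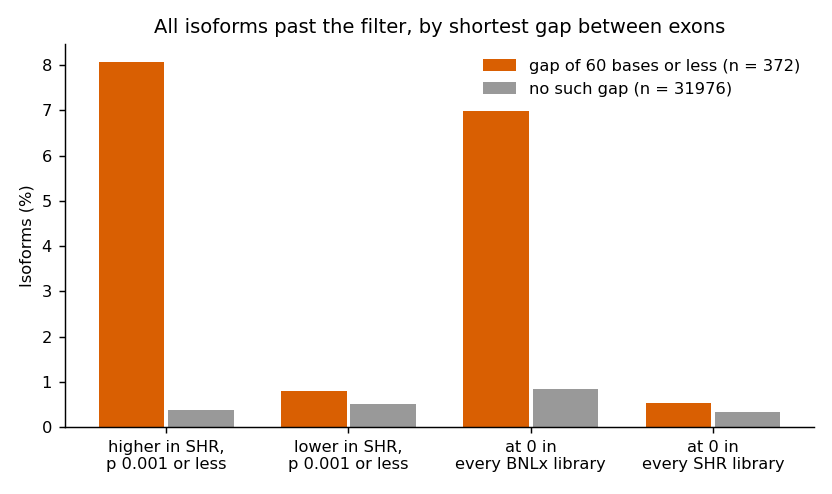
Percent of all isoforms past the filter that passed at p of 0.001 or were at 0 in 1 strain, for the 372 isoforms with a gap between exons of 60 bases or less (orange) and the 31976 without one (grey). The share higher in SHR is 8.06% with such a gap and 0.39% without, while the shares lower in SHR are 0.81% and 0.52%.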

How the data were processed

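PolyA RNA of 6 whole brains was sequenced with an unstranded kit, so reads of antisense partners cannot be told apart. The authors aligned reads with HISAT2 to strain genomes made from rn6, assembled them with StringTie 1.3.5 and Ensembl, added 3′ ends with aptardi 1.0.0 and estimated abundances with RSEM. The deposited values are RSEM expected counts per isoform and per locus, not normalized, and TPM, which the authors obtained from the same RSEM runs. FPKM and isoform percentages were not used. The table of the whole series was only compared with the per-library values.

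Expected counts were rounded, filtered at 50 counts in 2 of 3 replicates of at least 1 strain, scaled by TMM and tested in R 4.3.3 with edgeR 4.0.16 (quasi-likelihood, two-sided, strain as the only term). Locus totals were called at a Benjamini-Hochberg adjusted p of 0.05 over 14471 loci, and isoforms at an unadjusted p of 0.001 over 32348, the threshold of the study. Usage was tested with diffSpliceDGE. DESeq2 1.42.0 and limma 3.58.1 were alternatives. On simulated counts for 14471 loci, edgeR recovered 7.5%, 71.6% and 100% of 2-, 4- and 16-fold changes. For 32348 isoforms the shares were 1.5%, 26.9% and 71.2%. Unchanged loci called falsely numbered 9 with edgeR and 67 with DESeq2, and unchanged isoforms 32 and 270. For usage, diffSpliceDGE recovered 37.7% of 53 loci holding an isoform changed 16-fold, with 32 false calls among 7742 loci. The samples are few, and p-values weigh the strain difference against the spread between libraries of a strain, with variance estimates that draw on all loci. That spread can hold differences in tissue content as well as between rats. Replicate numbers are names only: same-numbered libraries correlated at -0.066, 0.35 and -0.241 in their deviations from the strain means.

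Members, families and lists were chosen with earlier results of these data known. The naming rule took the 6 loci per direction with the lowest p, isoforms at p of 0.001 or less, up to 8 isoforms per strain at 0, the 8 leading loci for usage, the 2 most abundant loci per family, 7 genes of the study's supplement and 12 well-known brain members, of which 2 had a locus. Others (Ppm1l for usage, Camkv STRG.32608.7, Prkar2a, Ppm1k STRG.17338.2, Prkch, Dusp6, Ptprz1, Ptprm, Camk1, Map3k12, Ppp1r8, Erbb4 and the short-gap isoforms) were named after their values were seen.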

Additional observations from a re-analysis of the deposited data

How the results depend on the processing

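The count of 0 called member loci became 3 with DESeq2, and ranged from 0 to 1 when single libraries were left out, the 1 without BNLx replicate 3. With BNLx replicate 3 and SHR replicate 1 both left out it was 31, while the count of isoforms was 27 and that of loci called for usage 27. The 11 isoforms became 25 with DESeq2 and 4 at an adjusted p of 0.05, and ranged from 6 to 11 without single libraries, with 6 each without SHR replicate 2 and SHR replicate 3. The 9 loci called for usage became 5 with limma on voom weights, 3 of the 9 (Ptprj, Stk3 and Mknk2) and 2 others (the joined loci of Map3k12 and of Ppp1r8). Their number ranged from 6 to 11 without single libraries, with 6 without BNLx replicate 2, SHR replicate 2 or SHR replicate 3. The 19 isoforms at 0 became 30 with a filter of 10 counts, and ranged from 12 without SHR replicate 2 to 26 without BNLx replicate 3. With the replicate number as a block, which the numbers do not support as a pairing, 1 isoform, 0 loci and 9 loci for usage passed. Not every locus named by the rule kept its direction. Ppp3ca had a log2 fold change of 0.097 over all 6 libraries. Its 755 and 812 CPM in BNLx replicates 1 and 2 nevertheless lie above its 609, 629 and 709 CPM in SHR. Prkar2b, at 0.38 over all 6, had 113 and 114.5 CPM in BNLx replicates 1 and 2 and 103 and 100 CPM in SHR replicates 2 and 3. Ptprm, outside the rule, went from -0.06 to 0.32 on the log2 scale without BNLx replicate 3 and SHR replicate 1. For loci 155 values kept their side of the threshold and 13 passed it. For isoforms 203 kept it, 16 passed it and 40 lost it, and for usage 72 kept it and 27 lost it. The cause was not tested. Low isoforms rest on few counts, such as 98.5 to 163 for Stk3 STRG.28046.1 in SHR, and no depth-matched comparison was made.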
